A study of Mus musculus with 6 samples.

Results

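Lysozymes and secreted or lysosomal proteins that mark macrophage states were followed in 9 named genes of the count table, which are *Lyz1*, *Lyz2*, *Chil3*, *Retnla*, *Arg1*, *Spp1*, *Gpnmb*, *Lgals3* and *Fn1*. They were chosen by symbol, keeping the first entry of each gene identifier, and are 9 of the 40481 genes in the table. Of the 9 genes, 8 passed the filter on low counts and were tested, and *Retnla* did not.

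The RNA came from unstimulated bone marrow-derived macrophages (BMDMs), cells flushed from mouse leg bones and grown for 5 to 6 days in medium with 10% serum and 10% CMG-conditioned medium, then kept in 2% of the conditioned medium. There were 3 wild-type libraries and 3 libraries labelled Scd2-KO, here *Scd2-m/-m*, from mice with floxed alleles of *Scd2*, a fatty acid desaturase gene, and the lysozyme M-Cre transgene. The Cre is driven from the *Lyz2* locus and acts in myeloid cells. How many copies of the Cre allele the mice carried, whether the wild-type mice carried floxed alleles or Cre, and the age and sex behind each library were not stated in the labels or methods. For the study as a whole, mice of both sexes and 2 to 5 months of age were used.

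Lysozyme cuts the peptidoglycan of bacterial walls and is a major secreted product of mouse macrophages, made mainly from *Lyz2*, while *Lyz1* is the form of intestinal Paneth cells. *Chil3*, a chitinase-like lectin also called Ym1, *Retnla*, a resistin-like protein, and *Arg1*, the arginase that turns arginine into ornithine and urea, are the classical genes of macrophages stimulated with IL-4 or IL-13. *Spp1* (osteopontin), *Gpnmb* (a lysosomal and surface glycoprotein) and *Lgals3* (galectin-3) are raised together in macrophages that load lipid, and *Fn1* encodes the matrix protein fibronectin.

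The lysozyme genes are neighbours on the minus strand of chromosome 10 (GRCm38), *Lyz2* (ENSMUSG00000069516) at chr10:117277331-117282321 and *Lyz1* (ENSMUSG00000069515) at chr10:117287797-117292868, with 5475 bases between them. Both have 4 exons and a coding sequence of 447 bases including the stop, which differed at 22 bases, an identity of 95.1%. The start of the coding sequence is shown because it lies in the first exon, where the Cre was placed in *Lyz2*, and because the pair has to be told apart by such bases when reads are counted. Over these 120 bases, within exon 1 at chr10:117292719-117292838 for *Lyz1* and chr10:117282123-117282242 for *Lyz2*, capitals mark the 11 bases that differ.
Lyz1: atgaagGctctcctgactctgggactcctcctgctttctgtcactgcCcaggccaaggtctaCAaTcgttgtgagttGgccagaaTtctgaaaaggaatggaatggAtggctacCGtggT
Lyz2: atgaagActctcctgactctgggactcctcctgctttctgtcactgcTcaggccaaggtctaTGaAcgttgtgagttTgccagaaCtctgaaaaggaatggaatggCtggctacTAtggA

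The sequences before the RefSeq starts were close copies too. The 130 bases before the RefSeq start (GRCm38.p6, minus strand, chr10:117292869-117292998 for *Lyz1* and chr10:117282273-117282402 for *Lyz2*) differed at 10 bases, an identity of 92.3%, and the 50 bases next to the start were identical. The *Lyz2* gene model given above reaches to 117282321, so its RefSeq start and most of the identical bases lie inside that model. Capitals again mark the bases that differ.
Lyz1: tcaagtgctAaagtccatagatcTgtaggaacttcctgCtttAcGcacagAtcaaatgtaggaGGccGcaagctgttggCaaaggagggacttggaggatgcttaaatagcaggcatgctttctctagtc
Lyz2: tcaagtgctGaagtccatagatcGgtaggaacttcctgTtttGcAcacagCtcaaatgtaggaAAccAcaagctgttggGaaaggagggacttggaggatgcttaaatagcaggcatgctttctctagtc

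Levels are given in CPM, counts per 1000000 counts of the library, with library sizes scaled by the TMM factors of edgeR, as the mean ± SD of 3 libraries. The libraries held 46285176 to 57629638 counts on genes. *Scd2*, the targeted gene, was at 62.7 to 77.8 CPM in the wild-type libraries and at 38.0 to 59.5 CPM in the *Scd2-m/-m* libraries (log2 fold change −0.59, standard error 0.19, FDR = 0.1, edgeR), so that the genotypes did not overlap but the gene was not called. The study reported a larger fall of *Scd2* transcript in such BMDMs, measured against housekeeping genes. The counts here are of the whole gene, and the part that the floxed alleles remove was not looked at separately. Genotypes were compared with edgeR's quasi-likelihood test over 14778 genes, and a gene was called at an adjusted p (FDR) below 0.05. Of all genes tested 17.5% were called, 9.65% being higher and 7.84% being lower in the *Scd2-m/-m* genotype, and the median log2 fold change of all genes tested was 0.0039. The number called was 2585, and it was 1440 without *Scd2-m/-m* replicate 2 and 1490 without wild-type replicate 2. The cells had the transcripts of macrophages, with *Csf1r*, the receptor that keeps macrophages alive, at 7031 ± 285 CPM in wild-type BMDMs.

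Of the 8 genes tested, 5 were called, against 17.5% of all genes tested, with *Chil3*, *Spp1* and *Lgals3* higher and *Lyz1* and *Lyz2* lower in *Scd2-m/-m* BMDMs. None of them passed the further threshold of the study, an absolute log2 fold change above 2, which 0.663% of all genes tested did together with the FDR. The libraries of the genotypes did not overlap in these 5 genes nor in *Fn1*, which makes 6 of 8, against 34.9% of all genes tested. The other genes tested, *Arg1* and *Gpnmb*, had overlapping libraries.

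**Figure D1:**
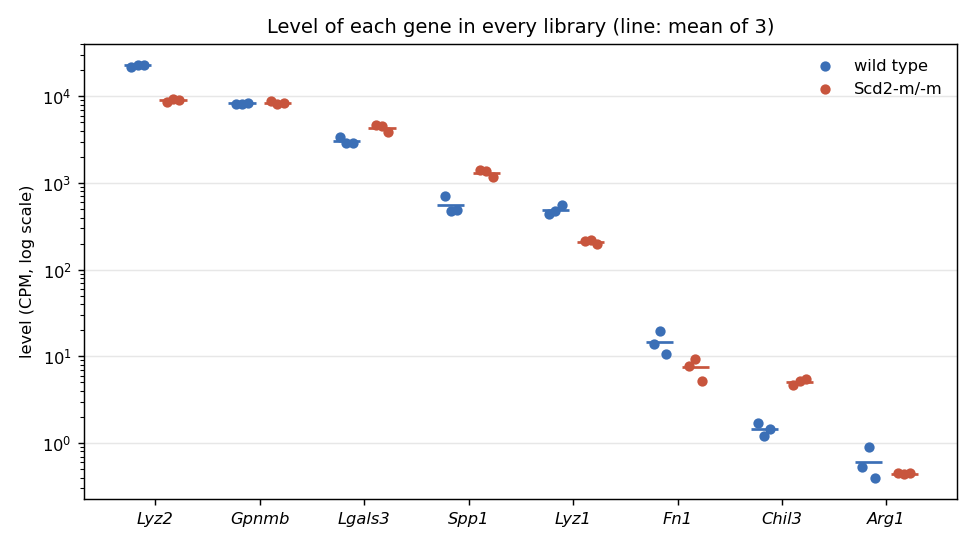
Level of 8 genes in each of the 6 libraries (points, CPM on a log scale) with the mean of 3 libraries per genotype (lines). The *Lyz2* points of the *Scd2-m/-m* libraries sit near 9029 CPM, below the wild-type points near 22751 CPM, while those of *Gpnmb* lie together.

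*Lyz2* was the most abundant gene of the wild-type libraries, ranking 1 by CPM, and fell to 39.7% of that level in *Scd2-m/-m* BMDMs. Wild-type replicates 1 to 3 gave 22099, 22926 and 23228 CPM, against 8661, 9374 and 9054 CPM in replicates 1 to 3 of the *Scd2-m/-m* genotype. The replicates of a genotype lay close to each other, and the lowest wild-type library was far above the highest *Scd2-m/-m* library. The log2 fold change was −1.33 (standard error 0.07, 95% confidence interval −1.49 to −1.18, FDR = 6.42e-08 from edgeR). Its counts took 2.25% ± 0.0756 (SD, n = 3) of all counts of a wild-type library and 0.913% ± 0.0406 (SD, n = 3) of an *Scd2-m/-m* library.

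*Lyz1* moved in the same direction. Wild-type replicates 1 to 3 gave 439, 472 and 564 CPM, against 212, 219 and 196 CPM in replicates 1 to 3 of the *Scd2-m/-m* genotype, so that the groups stood apart and wild-type replicate 3 was the highest library. The mean fell from 492 ± 64.5 to 209 ± 12 CPM (n = 3 each, SD), or on the log2 scale a change of −1.23 (standard error 0.09, 95% confidence interval −1.42 to −1.05, FDR = 9.74e-07, edgeR). Paneth cell transcripts were nearly absent, with *Defa24*, *Defa17*, *Ang4* and *Pla2g2a* at 0 counts in every library.

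The share of *Lyz1* in the pair overlapped between the genotypes. *Lyz1* made up 1.95% (95% Wilson interval 1.92 to 1.98), 2.02% (1.99 to 2.04) and 2.37% (2.34 to 2.40) of the summed *Lyz1* and *Lyz2* counts in wild-type replicates 1, 2 and 3. In *Scd2-m/-m* replicates 1, 2 and 3 it made up 2.39% (2.35 to 2.44), 2.28% (2.24 to 2.33) and 2.12% (2.08 to 2.16), and these intervals cover counting error only. The means were 2.11% ± 0.226 and 2.27% ± 0.140 (SD, n = 3 each, exact permutation test, two-sided, p = 0.3, in a design that cannot give a p below 0.1). The difference of 0.153 percentage points ranged from 0.0713 to 0.282 when a library was left out.

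The sum of both genes does not depend on how shared reads were assigned between them. It went from 23243 ± 641 to 9239 ± 360 CPM (SD, n = 3 each), to 39.7% of the wild-type level, and the genotypes did not overlap (p = 0.1 in a two-sided exact permutation test, which 3 against 3 cannot go below). Of all stretches of 75 bases in the *Lyz1* transcript 6.22% occur unchanged in that of *Lyz2*, 2.06% of those of 100 bases and 0 of the 1114 stretches of 150 bases. The labels and methods do not say how reads that match both genes were counted, so the level of *Lyz1*, at about 2% of that of its neighbour, is uncertain.

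**Figure D2:**
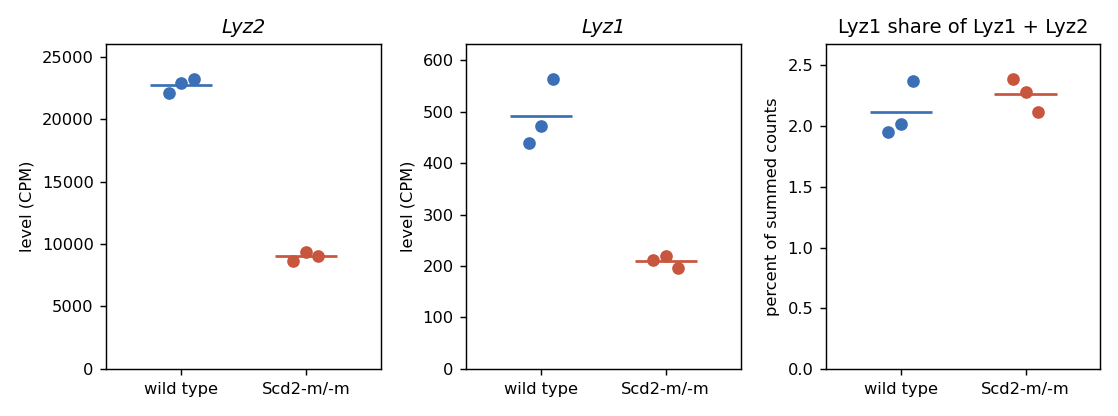
*Lyz2* and *Lyz1* levels (left and middle, CPM) and the *Lyz1* share of their summed counts (right, percent) in each library, with lines at the mean of 3. Both levels fell by more than the spread of the replicates (22751 to 9029 and 492 to 209 CPM), while the shares of the genotypes overlap, with all libraries between 1.95% and 2.39%.

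The Cre allele sits in *Lyz2* and the libraries labelled Scd2-KO come from mice with both the Cre and the floxed *Scd2* alleles. The extent of the deletion in each culture was not measured here, and the Cre status of the wild-type mice is not stated, so an effect of the insertion on *Lyz2* and an effect of targeting *Scd2* cannot be told apart. Of the 31 other annotated genes within 500 kb of *Lyz2*, 9 were tested, and none was lower by the test. *Yeats4*, *Cpsf6* and *Mdm2* were called higher, against 9.65% of all genes tested. Their log2 fold changes were 0.31 (standard error 0.06), 0.29 (0.07) and 0.24 (0.06), while the 6 others lay between −0.08 and 0.13. The lysozyme genes were the tested genes of the region that fell.

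Genes of macrophage identity moved beside the lysozymes. Of the 12 on the list all were tested, 6 were called lower and 2 higher, against 7.84% and 9.65% of all genes tested. The median log2 fold change of the list was −0.25. *Cebpa*, a transcription factor of myeloid cells, fell from 164 ± 9.44 to 113 ± 7.49 CPM, *Aif1*, which encodes the actin-binding protein IBA1, from 76.3 ± 8.27 to 51.1 ± 4.73 CPM, and *Csf1r* to 5414 ± 68.7 CPM (SD, n = 3 each). The called genes that rose were *Lamp2* (log2 fold change 0.35, standard error 0.06) and *Cd68* (0.22, standard error 0.07), both of lysosomal membrane glycoproteins. The summed level of the list was 17317 to 17363 CPM in wild-type and 14664 to 15241 CPM in *Scd2-m/-m* libraries. The list and this sum include *Lamp2* and *Mrc1*, which were not among the macrophage markers set in the design. In RNA from whole cultures, fewer cells of a type and less RNA of a gene per cell cannot be told apart, and the part of this shift in the lysozyme result was not tested.

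Among the genes of alternative activation, *Chil3* rose, *Arg1* was low with no call and *Retnla* was at the limit of detection. For *Chil3* (ENSMUSG00000040809, minus strand, chr3:106147554-106167564) wild-type replicates 1 to 3 gave 1.71, 1.21 and 1.46 CPM, against 4.64, 5.19 and 5.42 CPM in replicates 1 to 3 of the *Scd2-m/-m* genotype. These rest on 56 to 85 and 259 to 315 counts per library, and the groups did not overlap. The mean rose 3.48-fold, from 1.46 ± 0.249 to 5.08 ± 0.400 CPM (n = 3 each, SD), or on the log2 scale a change of 1.79 (standard error 0.17, 95% confidence interval 1.44 to 2.15, FDR = 6.68e-06, edgeR), and 99.2% of all genes tested had a lower one.

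The rise of *Chil3*, which is also transcribed in granulocyte precursors and monocytes, came with transcripts of those cells. Of 15 other granulocyte genes 10 were tested and 7 were called higher, none lower, against 9.65% called higher of all genes tested. The 15 summed to 23.1 to 26.5 CPM in wild-type and 36.1 to 46 CPM in *Scd2-m/-m* libraries. *Mmp8*, the most abundant of them, did not rise. It went from 12.5 ± 1.65 to 10.1 ± 1.87 CPM, with overlapping libraries and no call (log2 fold change −0.31, standard error 0.13). *S100a9*, a calcium-binding protein of neutrophils, had 3.18, 2.71 and 2.48 CPM in the wild-type and 7.24, 8.69 and 10.3 CPM in the *Scd2-m/-m* libraries (log2 fold change 1.65, standard error 0.15). *Ngp*, a granule protein gene of immature neutrophils, rose by 1.74 (standard error 0.21), and *Ly6g*, which defines mature neutrophils, was at 0 in every wild-type library and at no more than 0.0358 CPM in an *Scd2-m/-m* library. Of 8 other monocyte genes 6 were called higher and *F13a1* lower, and their sums overlapped between the genotypes (141 to 156 against 152 to 217 CPM). *Vcan*, without a call, went from 39.2 ± 10.3 to 22.3 ± 4.22 CPM (log2 fold change −0.81, standard error 0.25, FDR = 0.0883, edgeR). *Cd177*, called higher, is on both the granulocyte and the monocyte list. Some markers of other cells rose as well, with *Cd79a* and *Cd79b* called higher of 3 tested B cell genes (summed list 2.26 to 3.84 against 5.47 to 7.24 CPM). Of 7 tested dendritic cell genes *Ccr7* and *Flt3* were called higher, from 0 to 4 and 2 to 10 counts in a wild-type library. The others had no call, with *Xcr1* at −0.61 and *Batf3* at −0.03 on the log2 scale. The sums of the dendritic cell list overlapped between the genotypes (3.04 to 4.64 against 4.22 to 5.52 CPM). The part of these cells in the rise of *Chil3* was not tested.

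**Figure D3:**
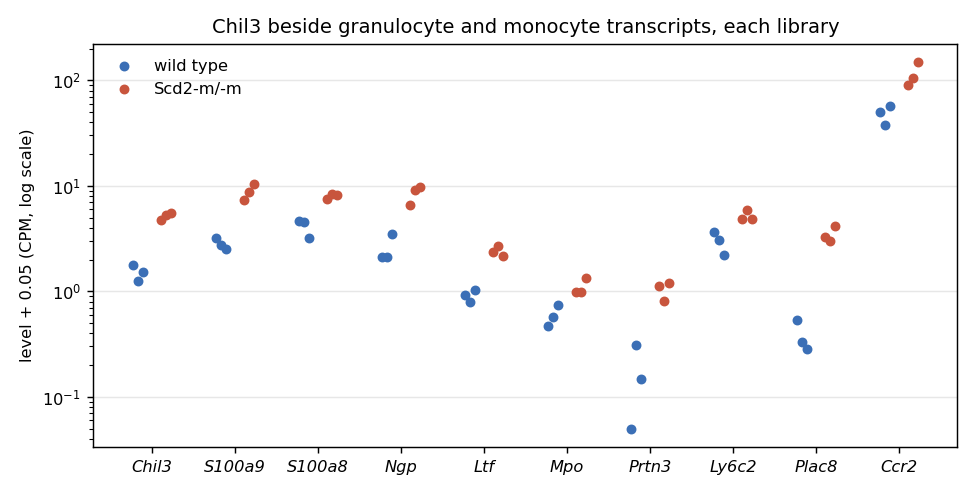
*Chil3* beside granulocyte and monocyte transcripts in each library (points, CPM plus 0.05 on a log scale, wild type left and *Scd2-m/-m* right of each tick). Every gene shown has all 3 *Scd2-m/-m* libraries above all 3 wild-type libraries, for *Chil3* at 4.64 to 5.42 against 1.21 to 1.71 CPM, and the genes other than *Chil3* were picked for the plot among those called higher.

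*Retnla* (ENSMUSG00000061100, plus strand, chr16:48842551-48844461) had 0 counts in the wild-type libraries and 1 count in *Scd2-m/-m* replicate 1, with 0 in the other two. A count of 0 over the wild-type group allows up to 3 counts, or 0.020 CPM, and both groups were under that floor, so no fold is given. The other resistin family genes were scarce but less so, with *Retn*, *Retnlb* and *Retnlg* together at 0.0393 to 0.121 CPM in wild-type and 0.139 to 0.344 CPM in *Scd2-m/-m* libraries. In the latter these came mainly from *Retnlg*, with 12, 6 and 14 counts in replicates 1 to 3. None of the family passed the filter with all libraries, and 1 was called without wild-type replicate 1.

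For *Arg1* (ENSMUSG00000019987, minus strand, chr10:24915221-24927484) wild-type replicates 1 to 3 gave 0.524, 0.911 and 0.393 CPM, against 0.448, 0.438 and 0.447 CPM in replicates 1 to 3 of the *Scd2-m/-m* genotype, from 20 to 42 counts a library. The wild-type libraries spread on both sides of the *Scd2-m/-m* libraries. The log2 fold change was −0.45 (standard error 0.37, 95% confidence interval −1.24 to 0.35, FDR = 0.456, edgeR), and without wild-type replicate 2 it was −0.04. With all counts halved the standard error was 0.356, against 0.369 with the counts as deposited. Halving nearly keeps the ratios between libraries and adds no counting noise, so it cannot show how far the low counts limit the estimate. The biological coefficient of variation, which edgeR fits with counting noise left out, was 24.6%. The study also measured *Arg1* RNA in unstimulated BMDMs against housekeeping genes and reported it higher in the *Scd2-m/-m* genotype. That rise was not seen in these counts, and the cause of the difference was not tested.

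*Spp1* (ENSMUSG00000029304, plus strand, chr5:104435118-104441050), which encodes the phosphoprotein osteopontin that binds integrins and CD44, rose 2.35-fold. Wild-type replicates 1 to 3 gave 703, 481 and 493 CPM, against 1414, 1360 and 1163 CPM in replicates 1 to 3 of the *Scd2-m/-m* genotype. Wild-type replicate 1 stood above the other wild-type libraries and still below every *Scd2-m/-m* library. The means were 559 ± 125 and 1312 ± 132 CPM (n = 3 each, SD), and the log2 fold change was 1.23 (standard error 0.16, 95% confidence interval 0.86 to 1.6, FDR = 0.0018, edgeR). An experimental gene model on the same strand overlaps *Spp1* in the annotation, and how its reads were counted is not known.

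*Lgals3* (ENSMUSG00000050335, plus strand, chr14:47367751-47386160), a lectin that binds galactosides on damaged lysosomes and on the cell surface, rose less and from a higher level. Wild-type replicates 1 to 3 gave 3442, 2890 and 2896 CPM, against 4683, 4574 and 3854 CPM in replicates 1 to 3 of the *Scd2-m/-m* genotype, with no overlap. The mean went from 3076 ± 317 to 4370 ± 450 CPM (n = 3 each, SD), or on the log2 scale a change of 0.51 (standard error 0.09, 95% confidence interval 0.31 to 0.70, FDR = 0.00163, edgeR). A rise was not limited to this galectin. Of 7 galectin family genes tested 5 were called, each of them higher, against 17.5% called and 9.65% called higher of all genes tested. The other 4 were *Lgals1* (669 ± 45.6 to 954 ± 81.9 CPM), *Lgals8* (113 ± 2.26 to 140 ± 3.05 CPM), *Lgals9* (141 ± 9.35 to 180 ± 13.2 CPM) and *Lgals3bp* (798 ± 32.0 to 965 ± 78.7 CPM), the last of which encodes a galectin ligand.

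*Gpnmb* (ENSMUSG00000029816, plus strand, chr6:49036546-49070929), a target of the MITF and TFE factors of lysosome biogenesis, had no call. Wild-type replicates 1 to 3 gave 8124, 8261 and 8497 CPM, against 8883, 8268 and 8314 CPM in replicates 1 to 3 of the *Scd2-m/-m* genotype. Apart from *Scd2-m/-m* replicate 1, the highest, the libraries of both genotypes lay among each other. The log2 fold change was 0.03 (standard error 0.07, FDR = 0.794, edgeR), and its 95% confidence interval of −0.11 to 0.18 leaves out changes of the size seen for *Spp1* and *Lgals3*. Its biological coefficient of variation was the smallest of the 8 genes, at 6.13%, against a median of 8.43% over all genes tested.

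For *Fn1* (ENSMUSG00000026193, minus strand, chr1:71585520-71653200) wild-type replicates 1 to 3 gave 13.9, 19.8 and 10.6 CPM, against 7.85, 9.25 and 5.26 CPM in replicates 1 to 3 of the *Scd2-m/-m* genotype. All *Scd2-m/-m* libraries lay below all wild-type libraries, by a narrow margin. The means were 14.8 ± 4.66 and 7.45 ± 2.02 CPM (SD, n = 3 each), and the log2 fold change of −0.99 (standard error 0.30, 95% confidence interval −1.74 to −0.23) missed the threshold (FDR = 0.0863, edgeR). The call depended on the setting, since limma-voom gave −0.98 (FDR = 0.0121), DESeq2 −0.99 (FDR = 0.0264) and edgeR without wild-type replicate 3 −1.18 (FDR = 0.0191). Its biological coefficient of variation of 25.2% was the largest of the 8 genes. Fibroblasts are another source of fibronectin, and the 9 fibroblast and stromal genes together were at 1.42 to 2.46 CPM in wild-type and 2.09 to 2.58 CPM in *Scd2-m/-m* libraries, with 0 of 3 tested genes called. An antisense gene overlaps *Fn1* in the annotation, and use of strand in counting is not given.

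**Figure D4:**
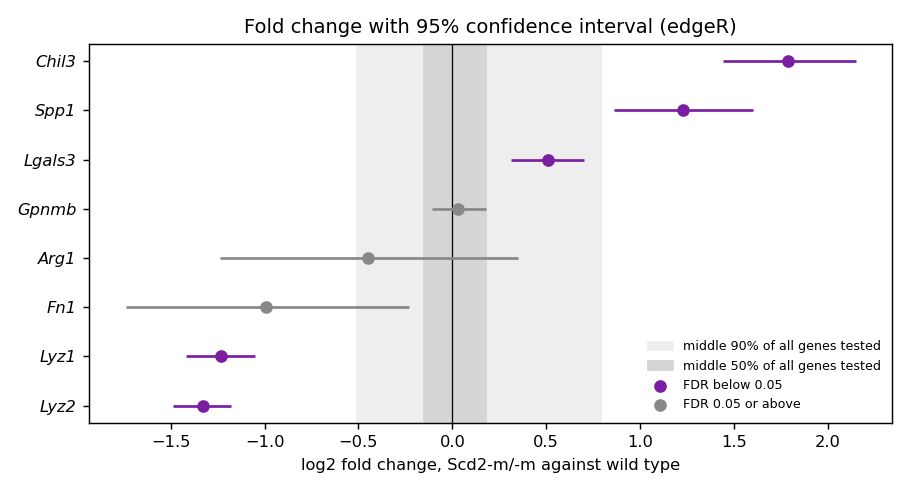
Log2 fold change of the 8 tested genes (*Scd2-m/-m* against wild type) with 95% confidence intervals from edgeR, over bands that hold the middle 50% and the middle 90% of all 14778 genes tested. *Chil3* (1.79), *Spp1* (1.23), *Fn1* (−0.99), *Lyz1* (−1.23) and *Lyz2* (−1.33) lie outside the wider band, *Lgals3* (0.51) within it, and the interval of *Gpnmb* spans 0.

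Per length, as CPM per kilobase of exon, the genes formed a high and a low set. In wild-type BMDMs *Lyz2* stood at 17288 ± 444, followed by *Lgals3* at 1656 ± 171, *Gpnmb* at 1273 ± 29.0, *Lyz1* at 389 ± 51.1 and *Spp1* at 339 ± 75.7 (SD, n = 3 each). *Lyz1* (348 to 447) and *Spp1* (292 to 427) overlapped in that order, and the others of the high set did not. *Fn1* at 1.26 ± 0.399, *Chil3* at 0.895 ± 0.153 and *Arg1* at 0.273 ± 0.121 followed, of which *Fn1* (0.908 to 1.69) and *Chil3* (0.744 to 1.05) overlapped. In *Scd2-m/-m* BMDMs *Spp1*, at 796 ± 80.3, stood above *Lyz1*, at 166 ± 9.53, and *Chil3*, at 3.12 ± 0.245, above *Fn1*, at 0.638 ± 0.173, with no overlap in either pair. The per-length level of *Lyz2* remained the highest of the 9 genes, at 6861 ± 271.

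Between replicates of a genotype some of these genes moved together. *Spp1* and *Lgals3* had a Pearson correlation of 0.93 between their deviations from the genotype means over the 6 libraries, and *Fn1* and *Arg1* one of 0.72, while *Lyz1* and *Lyz2* had 0.50 and *Spp1* and *Gpnmb* −0.10. These are descriptions over 6 points that share library and depth. Among the 8192 genes with a mean of at least 10 CPM, those most like *Lyz2* in log2 CPM over the 6 libraries were *Pilra* (r = 0.9997), *Slc11a1* (r = 0.9990) and *Nuak1* (r = 0.9981). *Slc11a1* encodes the metal transporter NRAMP1 of phagosomes, which fell from 506 to 365 CPM. *Zdhhc24*, *Cd300a* and *Madd* were most like *Lyz1* (r = 0.9971, 0.9969 and 0.9947). *Lrp12*, *Hmgn2* and *Alcam* were most like *Chil3*, *Nf2*, *Hadha* and *S100a10* most like *Spp1*, and *Arfgef3*, *Clcn7* and *Speg* most like *Lgals3*, with r between 0.9938 and 0.9997. These values, the highest among 8192 genes, include the difference between the genotypes. Genes that differ between the genotypes share it, so a high r here does not show regulation in common. For genes without a call the likeness was lower or rested on small differences, from 0.9409 to 0.9600 for *Arg1* (*Ptdss1*, *Nol11* and *Becn1*), 0.9625 to 0.9801 for *Gpnmb* (*Rcor3*, *Coq8b* and *mt-Atp6*) and 0.9735 to 0.9942 for *Fn1* (*Rps10-ps1*, *Htra2* and *Dhx30*).

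The genes that work with each of these did not all follow them. In the lysozyme family *Lyzl4*, tested at 0.777 ± 0.0259 and 0.972 ± 0.182 CPM, differed by 0.33 on the log2 scale (standard error 0.26), and *Lyzl6*, *Spaca3* and *Lyg1* had 0 counts. In the chitinase family *Chil3* was the 1 gene called of 5 tested, and 2 were called without wild-type replicate 3. *Chil1* differed by 1.20 on the log2 scale (standard error 0.57, FDR = 0.171, edgeR), at 0.127 ± 0.113 and 0.300 ± 0.0335 CPM. The lysosomal enzyme gene *Ctbs* differed by −0.08, *Chid1* by 0.12 and *Ovgp1* by 0.02. *Chil4*, a near copy of *Chil3*, had no count in wild-type libraries and at most 0.103 CPM in an *Scd2-m/-m* library, and how reads shared by both genes were counted is not known.

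Against the 17.5% called over all genes tested, 6 of 21 tested genes that respond to IL-4 and IL-13 were called, 4 higher and 2 lower, and the median log2 fold change was −0.07. Beside *Chil3*, *Ear2* (1.90, standard error 0.37), an eosinophil-type ribonuclease, and *Egr2* (0.86, standard error 0.10), a transcription factor, rose, and *Ptgs1*, a cyclooxygenase, fell by 0.78 (standard error 0.09). Upstream, 6 of 17 genes of the IL-4 receptor and STAT6 pathway were called, 2 higher and 4 lower. The receptor chain gene *Il13ra1* fell from 20.9 ± 1.45 to 12.1 ± 0.754 CPM, *Cebpb*, a factor of *Arg1* transcription, from 194 ± 16 to 143 ± 8.74 CPM, and *Klf4* rose from 16.7 ± 1.61 to 22.7 ± 0.592 CPM (SD, n = 3 each). Around *Arg1*, 5 of 18 genes of arginine and polyamine metabolism were called, 4 of them lower, among them *Slc7a2*, an arginine transporter (7.04 ± 0.648 to 4.75 ± 0.478 CPM), *Srm*, the spermidine synthase (log2 fold change −0.64, standard error 0.10), and *Glul*, the glutamine synthetase (−0.30, standard error 0.06). Of 19 genes of the response to LPS and interferon gamma 9 were called, 7 lower and 2 higher, with a median of −0.24. Those of smallest p were *Il1b*, the interleukin-1 beta gene (log2 fold change −2.48), *Fpr2*, a formyl peptide receptor (−1.58), and *Marco*, a scavenger receptor (−1.70).

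Of 30 genes of lipid-laden macrophages, to which *Spp1*, *Lgals3* and *Gpnmb* belong, 14 were called, 12 higher and 2 lower, against 17.5% of all genes tested. The median log2 fold change of the list was 0.26. Without those 3 genes 12 of 27 were called, 10 higher. *Axl*, a receptor for dying cells, rose from 97.3 ± 8.68 to 181 ± 12.7 CPM (SD, n = 3 each, log2 fold change 0.89, standard error 0.07), while *Apoe*, the lipid carrier, fell from 9973 ± 610 to 3505 ± 231 CPM (−1.51, standard error 0.08). In the MITF, TFEB and TFE3 network, which includes *Gpnmb*, 7 of 20 genes were called, 6 higher and 1 lower, with a median of 0.15, and 4 were called without wild-type replicate 3 or without *Scd2-m/-m* replicate 2. *Fnip2* (0.68, standard error 0.08), *Rragd* (0.89, standard error 0.12), both of nutrient signalling at the lysosome, and *Atp6v0d2* (0.74, standard error 0.10), a proton pump subunit, rose.

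Receptors of osteopontin and fibronectin were called in 4 of 15 tested genes, against 17.5% of all genes tested, 1 higher and 3 lower, and the median log2 fold change was −0.19. *Itga9*, an integrin subunit that binds osteopontin, fell from 17.8 ± 2.59 to 4.99 ± 0.831 CPM, and *Itgb5* from 346 ± 31.5 to 216 ± 16.8 CPM, while *Itgb7* rose from 11 ± 0.238 to 34.5 ± 1.64 CPM (SD, n = 3 each). Without wild-type replicate 3, 7 receptor genes were called. Of 15 secreted matrix genes 8 were called, 4 in each direction, including *Thbs1*, the thrombospondin gene, which fell by 1.53 (standard error 0.07), *Tgfbi*, which fell by 0.44 (standard error 0.08), and *Ecm1*, which rose by 0.36 (standard error 0.06) on the log2 scale. These counts describe the lists and were not tested as sets.

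**Figure D5:**
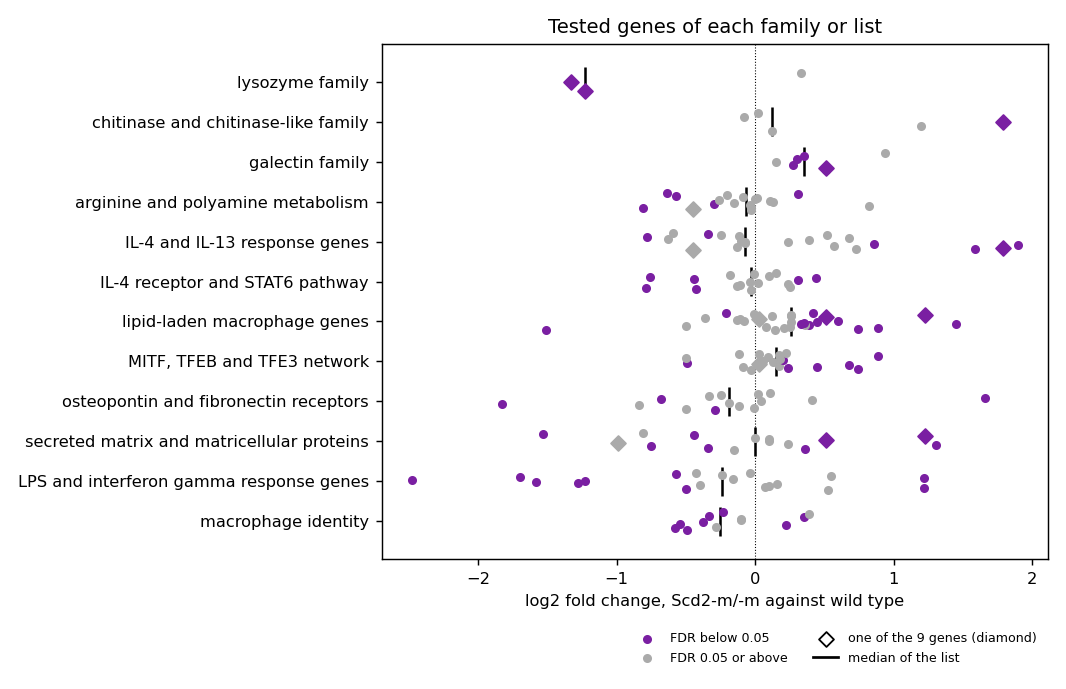
Log2 fold change of every tested gene of 12 families and lists (points, purple where the FDR is below 0.05, diamonds for the 9 genes described here where tested, black lines for the median of a list). The called galectins lie to the right of 0, and the diamonds of *Lyz1* and *Lyz2* lie at −1.23 and −1.33.

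In the RefSeq promoter table (GRCm38.p6, windows around each start) 7 of the 9 genes had an entry, with 8 windows, and *Arg1* and *Fn1* had none. The letters AGGAAGT, the core bound by ETS factors such as PU.1, were searched for on both strands because the lysozyme promoters hold them, so their match there, in near copies of 1 sequence, was fixed by the choice. They also occurred in a window of *Chil3*, *Spp1* and *Retnla*, and 9.35% of all 32851 windows hold them. The matches are shown with 12 bases on each side, in capitals, as read on the strand of the gene, at chr10:117292950-117292980, chr10:117282354-117282384, chr3:106167606-106167636, chr5:104434987-104435017 and chr16:48842399-48842429.
Lyz1: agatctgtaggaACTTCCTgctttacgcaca
Lyz2: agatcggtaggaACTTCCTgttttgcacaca
Chil3: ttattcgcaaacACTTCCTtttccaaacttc
Spp1: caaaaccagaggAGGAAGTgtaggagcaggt
Retnla: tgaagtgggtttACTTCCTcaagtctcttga

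The match lay 100 bases before the RefSeq start in both lysozyme genes, 60 in *Chil3*, 112 in *Spp1* and 198 in *Retnla*, counted from its first base as printed. The RefSeq starts of *Lyz2* and *Retnla* lie inside the gene models given above, so the match was nearer to the start of those models. The genes with these letters fell (*Lyz1* and *Lyz2*), rose (*Chil3* and *Spp1*) or were barely detected (*Retnla*). *Spi1*, which encodes PU.1, went from 758 ± 50.7 to 648 ± 26.1 CPM (SD, n = 3 each, log2 fold change −0.23, standard error 0.07, FDR = 0.0323, edgeR). The TATA letters TATAAA were in 3 windows, of *Chil3*, *Spp1* and *Retnla*, against 13.6% of all windows, and CACGTG and TCATGTG, letters of MITF and TFE sites, were in none of the 8 (7.15% and 3.77% of all windows). A match of letters is a description of the window and says nothing of binding in these cells.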

How the data were processed

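Poly(A)-selected RNA of 6 BMDM cultures was sequenced, 1 library each. Reads were mapped by the authors with STAR against Ensembl's GRCm38, and the raw counts of each gene were deposited, not normalized. Counting tool, read length and strand use: not given in the sources used here. A second table with the authors' own comparison (log2 fold changes, p-values and levels) was not used. Repeated entries (276 of 40757) were removed. Genes were tested with edgeR 4.0.16 (filterByExpr, TMM, robust glmQLFit and glmQLFTest) in R 4.3.3, with Benjamini-Hochberg adjustment over 14778 genes. The standard error is the log2 fold change over the square root of F. Exonic lengths come from GENCODE M21. DESeq2 1.42.0, limma 3.58.1 (voom), other scalings and filters, halved counts, a replicate block and leaving out each library were alternatives. The test was checked on simulated data. Replicates are separate libraries, and nothing says that they came from separate animals, so the p-values measure the spread between these libraries.

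The 9 genes, the gene lists and the tests were chosen with earlier results of these data known. The genes named are the 9, their families, up to 3 called genes of smallest p in each other list, the 3 genes most like each, tested genes within 500 kb of *Lyz2*, markers and *Scd2*. *Lamp2*, *Cd68*, *Spi1* and the promoter letters were chosen after values were seen.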

Additional observations from a re-analysis of the deposited data

How the results depend on the processing

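The calls of *Lyz1*, *Lyz2*, *Chil3*, *Spp1* and *Lgals3* kept their direction and side of the threshold under all 15 alternatives, and *Arg1* and *Gpnmb* stayed without a call. *Fn1* gained a call with DESeq2 (−0.99), limma-voom (−0.98), limma-voom with quality weights (−0.94) and the replicate block (−0.98, FDR = 1.44e-05, edgeR). With a library left out, the log2 fold change of *Fn1* ranged from −1.18 to −0.72 and was called only without wild-type replicate 3. That of *Gpnmb* lay between −0.0008, where *Scd2-m/-m* replicate 1 was left out, and 0.05. The cause was not tested. The number of genes called went from 2585 (1426 higher, 1159 lower) to 4507 (2325 and 2182) with quality weights, to 98 with a further log2 fold change above 2, and to between 1440 (869 higher, 571 lower, without *Scd2-m/-m* replicate 2) and 2567 (1392 and 1175, without *Scd2-m/-m* replicate 1), with 1490 without wild-type replicate 2, and fewer libraries entered these fits. Of 195 counts of called genes in the families and lists, 183 stayed within 1.5 times. Of the 12 that did not, 5 came with quality weights, the replicate block raised the IL-4 and IL-13 response genes called from 6 to 11, and no filter raised the receptors called from 4 to 7. The level means moved by at most 1.29% with other scalings. *Arg1* and *Retnla*, below 1 CPM, rest on few counts. The labels do not say whether the replicate numbers pair the libraries. Over all genes tested, deviations of same-numbered libraries correlated at 0.053, −0.020 and 0.040, and not every library correlated best with its own number. A correlation over all genes cannot tell whether some genes are paired. With the replicate block 2974 genes were called, and among the 8 genes tested it changed no call but that of *Fn1*. The block lowered the standard error of *Fn1* from 0.303 to 0.0978 and of *Spp1* from 0.157 to 0.0799. It raised that of *Chil3* from 0.166 to 0.179 and of *Arg1* from 0.369 to 0.382.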
